A study of Mus musculus with 30 samples.

Results

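MCA-970 is 1 of 5 fibrosarcoma cell lines that the study made from tumors induced in mice with the carcinogen 3-methylcholanthrene (MCA), and it was compared here with the other 4. Its 6 tumors were taken by their titles from the 30 tumors of the series and set against the 24 tumors of MCA-943 (4), MCA-948 (8), MCA-969 (8) and MCA-972 (4), with each of these lines given equal weight. Cells of each line were grown under the skin of mice, the tumors were dissociated, cells carrying the leukocyte protein CD45 were removed with magnetic beads, and the RNA of the remaining cells was sequenced. The stated design included hosts with and without NK cells, but the labels do not say which host carried which tumor, and the letters W and a in the titles have no stated meaning, so hosts were not compared. All 30 tumors carry the C57BL/6 background in the labels, and growth was in C57BL/6 mice. The strain is given as Ncr1Cre R26DTA for MCA-970, MCA-948, MCA-969 and MCA-972 and as Ncr1Cre for MCA-943. In the former strain the Ncr1 promoter, which is active in NK cells and other NKp46+ innate lymphoid cells, drives a Cre that switches on a diphtheria toxin gene in those cells. The labels call MCA-970, MCA-948 and MCA-972 sensitive to NK cells, MCA-943 not sensitive, and MCA-969 sensitive for 2 of its tumors and not sensitive for the other 6. The age of the animals is not given in the sources used here. A line derived from 1 primary tumor, so the 6 tumors are repeats of that line and not of a class of tumors, and p-values below measure the spread between tumors of a line.

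Fibroblasts keep a record of where in the body they arose, in the Hox genes and other transcription factors that pattern the embryo, and tumors made from them carry that record along. They also build the matrix around them, with fibrillar collagens, basement membrane collagens, proteoglycans, integrins and the proteases that cut them. A bulk tumor sample adds the RNA of host cells, such as those of blood vessels and any leukocytes that were not removed.

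Between 27745104 and 46537062 reads per tumor were assigned to genes, and between 27745104 and 43696938 in the MCA-970 tumors. Levels are given in CPM (reads of a gene scaled to a common library size) after TMM scaling. Differences are log2 fold changes of MCA-970 over the mean of the 4 lines from edgeR. The value after ± is an approximate standard error (SE). It is the size of the fold change divided by the square root of the F statistic of its test. Calls needed an adjusted p (Benjamini-Hochberg) under 0.05 together with a log2 fold change of 1 or more in size. The libraries fall into 3 sets that share the number opening their sample description, called runs here. All 6 MCA-970 tumors lie in the second run, with 2 MCA-948 and 2 MCA-969 tumors, so for most tumors line and run cannot be told apart, and the comparison within the second run is given beside the results. Fewer cells of a type and less RNA per cell cannot be told apart in bulk RNA.

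Genes of fibroblasts were expressed in the MCA-970 tumors. The platelet-derived growth factor receptor gene Pdgfra lay between 647 and 1068 CPM in the 6 MCA-970 tumors, with a median of 850, and the main collagen of connective tissue, Col1a1, between 3279 and 6775 CPM, with a median of 4956. These 2 genes were named after their values were seen. Of 15 fibroblast genes tested, 1 was higher and 1 lower than the mean of the 4 lines, with a median log2 fold change of 0.07. Thy1 lay at 632 to 938 CPM in MCA-970 and at 12.7 to 729 CPM in the other 24 tumors. S100a4 lay at 8.95 to 32.0 CPM against 8.94 to 133 CPM. The comparison is with lines of the same kind, so it does not test the fibroblast label. The summed level of these 15 genes was 43149 to 52177 CPM in MCA-970 and 15644 to 79527 CPM in the other 24 tumors. The muscle determination gene Myod1 had no count in any MCA-970 tumor. Over genes, the 6 tumors correlated with each other at a median r of 0.984, and with the tumors of MCA-972 at 0.948, MCA-969 at 0.944, MCA-948 at 0.923 and MCA-943 at 0.920. These correlations are across genes, which are not independent replicates, and are given as a description.

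Of 16862 genes tested, 1933 were higher in MCA-970 than the mean of the other lines (11.5%) and 971 were lower (5.76%). Against each of the 4 lines separately, 268 genes were higher (1.59%) and 174 lower (1.03%). These 442 genes are those that set MCA-970 apart from every other line at the thresholds used. The 6 MCA-970 tumors all lay above the other 24 for 158 of the 268 genes, and all below them for 61 of the 174, where over all genes tested 3.90% lay wholly above and 2.94% wholly below. Among the 268 higher genes 228 were protein-coding. Among the 174 lower genes 69 were protein-coding, 34 were TEC genes (loci listed in the annotation as still to be experimentally checked) and 16 were small nucleolar or small Cajal body RNA genes. The lower calls thus took 9.58% of the TEC genes tested and 20.5% of those small RNA genes, against 0.486% of protein-coding genes. Counts within the gene lists below are to be set beside the shares over all genes. These are 11.5% higher and 5.76% lower than the mean, and 1.59% and 1.03% against each line.

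Within the second run alone, all 268 higher genes kept their direction, 228 were called against the mean of MCA-948 and MCA-969, and 160 against both lines. Of the 174 lower genes, 134 had enough counts to be tested in that run, 133 kept their direction, 103 were called against the mean and 77 against both. The tumors of the second run were part of the fit that picked these genes. Keeping direction was thus largely set by that choice and is not an independent check. By class, 57 of the 69 protein-coding genes were called against the mean there, 5 of the 34 TEC genes (14 tested), and 9 of the 16 small nucleolar and Cajal body RNA genes (12 tested). With run as a covariate over all 30 tumors, 123 genes were higher and 106 lower than each line. MCA-943 and MCA-972 have no tumor in the second run, so that fit reaches them through MCA-948 and MCA-969. Of the genes picked by the naming rule or by hand, 28 of 60 called higher and 8 of 19 called lower than each line kept that call with run as a covariate, and those that did not are listed at the end.

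**Figure D1:**
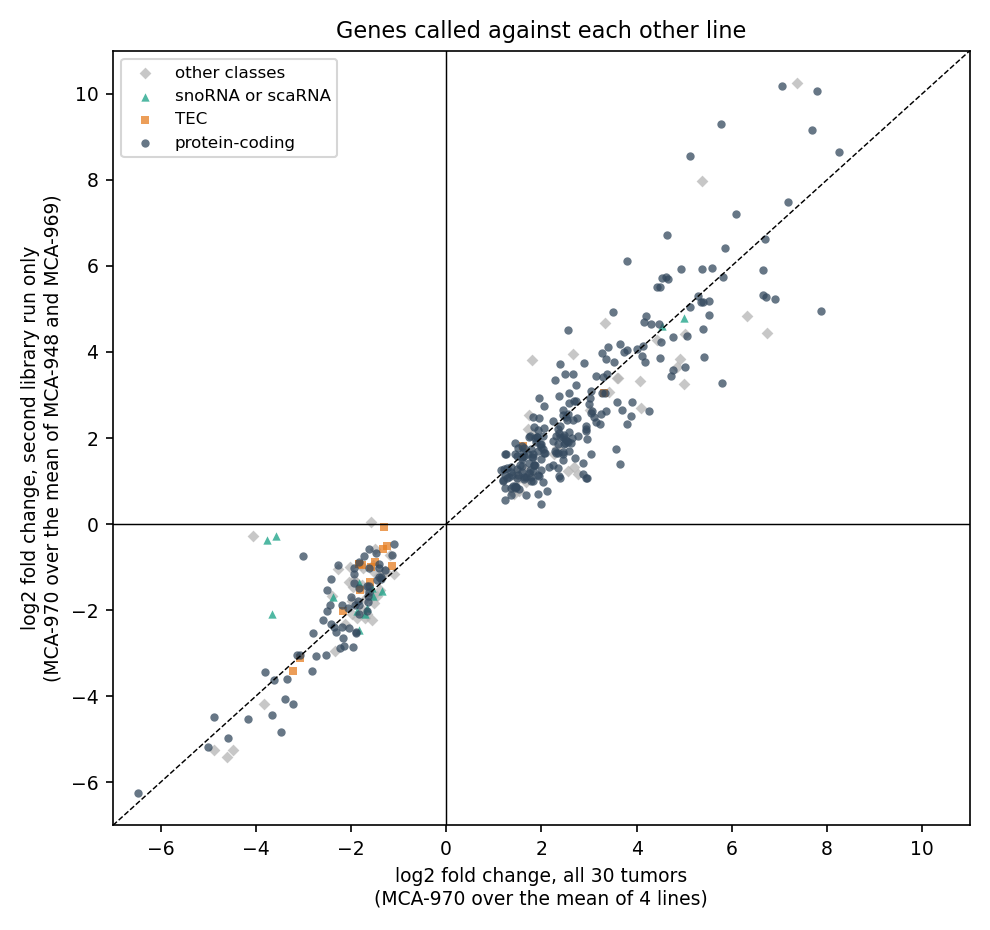
Log2 fold change of the genes called against each other line, over all 30 tumors (horizontal axis, MCA-970 over the mean of 4 lines) and in the second library run alone (vertical axis, MCA-970 over the mean of MCA-948 and MCA-969), with 1 point per gene and its class by colour and shape. The dashed line marks equal values. All 268 higher genes lie above 0 on both axes, and 133 of the 134 lower genes tested in the second run lie below 0 on both. The second-run tumors are among the 30 that picked these genes, so the axes are not independent.

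Transcription factors that pattern the embryo were among the higher genes. Pax3, a paired-box factor of the dermomyotome and neural crest, lay at 1.47, 3.33 and 4.38 CPM (lowest, median and highest of the 6 tumors), against 0 to 0.0678 CPM in the other 24 tumors. All 4 MCA-972 tumors had no count of Pax3, so that the mean of MCA-970 was at least 162-fold higher than the 0.0198 CPM that 3 counts over those 4 tumors would give. Its log2 fold change was 6.98 against MCA-943, the line with the highest Pax3 level after MCA-970 (adjusted p = 1.62e-10). Pax3 was thus present at a low level in every MCA-970 tumor and at or near 0 in all others.

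Hand2, a basic helix-loop-helix factor of the heart and limb bud, lay at 4.67, 6.06 and 7.16 CPM in MCA-970 and at 0 to 0.465 CPM elsewhere. It had no count in MCA-943, which put MCA-970 at least 275-fold higher, and it was 4.04 higher on the log2 scale than MCA-972, the nearest line (adjusted p = 5.05e-07). Lhx2, a LIM-homeodomain factor, lay at 0.957, 1.40 and 1.81 CPM against 0 to 0.612 CPM, and had no count in the 4 other tumors of the second run. None of these 3 genes overlapped between MCA-970 and the other tumors.

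Tbx1, a T-box factor of the pharyngeal region, lay at 13.3, 14.9 and 19.9 CPM against 0.0929 to 2.98 CPM, with a log2 fold change of 4.76 ± 0.15 and 4.35 within the second run. Dmrt2, which acts in the somite, lay at 3.94, 4.20 and 4.78 CPM against 0 to 1.09 CPM (log2 fold change 5.53 ± 0.30). Meox1, a somite homeobox gene, lay at 54.8, 163 and 219 CPM, and 2 of the 24 other tumors reached the lowest of these (log2 fold change 4.0 ± 0.36). These 3 genes were named after their values were seen. Of 43 positional transcription factors listed beside the Hox genes, 15 were higher and 1 lower than the mean of the lines, and 3 (Pax3, Hand2 and Lhx2) were higher than each line. The median log2 fold change of the list was 0.53, where that of all genes tested was 0.01.

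**Figure D2:**
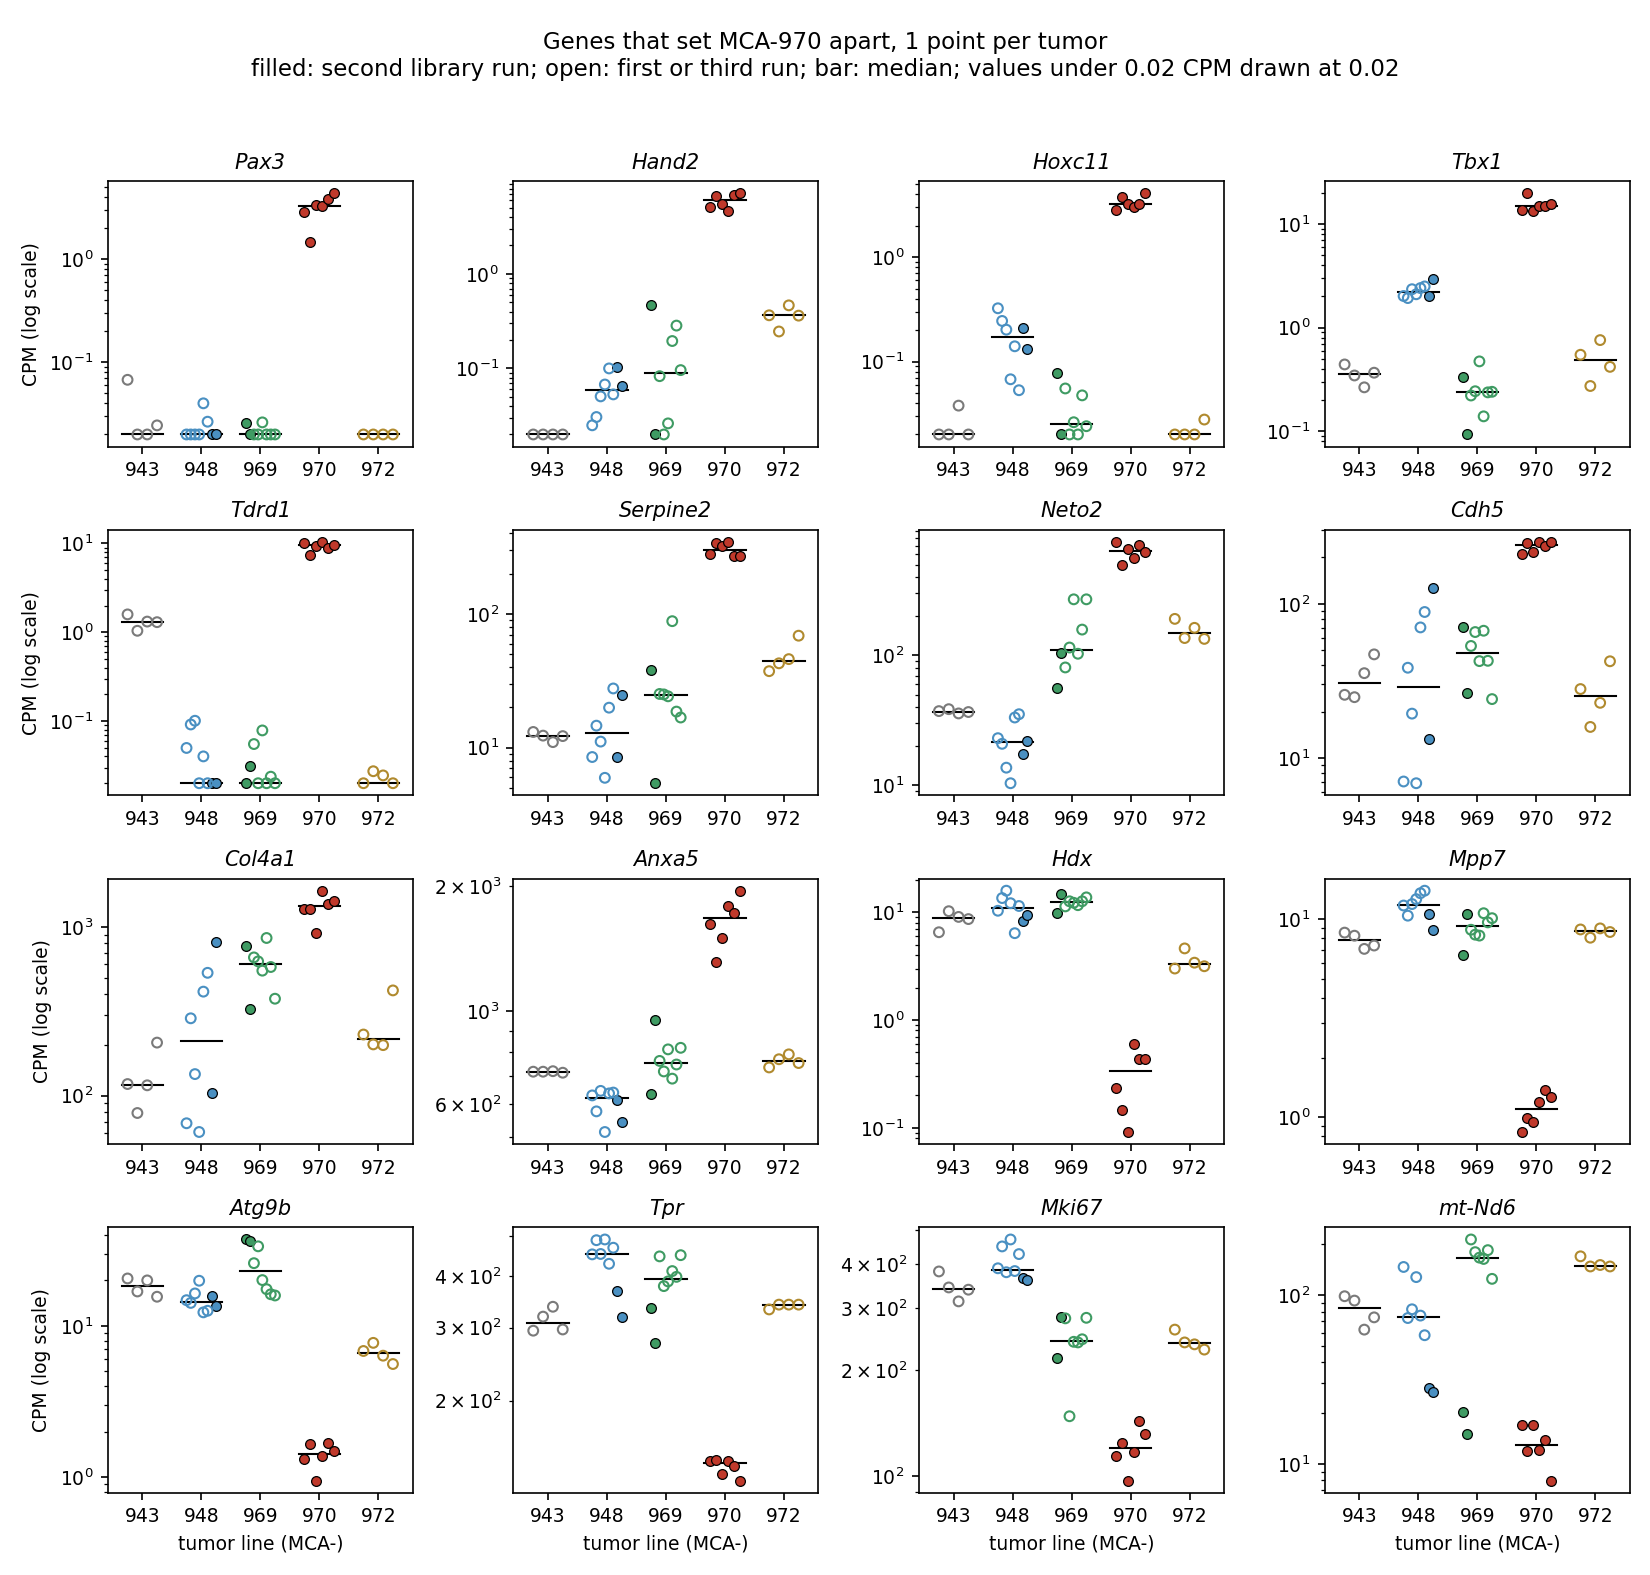
Levels of 16 genes in CPM (log axis) in each of the 30 tumors by line, with tumors of the second library run filled, those of the other runs open and the median of each line as a bar. Pax3, Hand2, Hoxc11, Tbx1, Tdrd1, Serpine2, Neto2, Cdh5, Col4a1 and Anxa5 are higher in all 6 MCA-970 tumors than in any other, Hdx, Mpp7, Atg9b, Tpr and Mki67 are lower, and mt-Nd6 is also low in the 4 other tumors of the second run.

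The Hox genes of MCA-970 formed a set of their own. Of 30 Hox genes tested, 17 were higher and 2 lower than the mean of the lines, with a median log2 fold change of 1.96, but the median was -0.01 against MCA-969, 0.77 against MCA-943, 0.90 against MCA-948 and 2.84 against MCA-972. Hoxa9 lay between 13.9 and 19.8 CPM in MCA-970 and between 11.2 and 22.8 CPM in MCA-969, and the other 3 lines were at or under 0.173 CPM. Hoxa11 lay between 0.987 and 1.86 CPM in MCA-970 and between 0.550 and 2.92 CPM in MCA-969, with no count in any tumor of MCA-943, MCA-948 or MCA-972. The 5′ genes of the HoxA cluster were thus found in these 2 lines and were at or near 0 in the other 3.

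Hoxa10, Hoxb9 and Hoxc11 were higher than each line. Hoxa10 lay at 23.5, 30 and 32.4 CPM, above the 9.37 to 15.6 CPM of MCA-969 (log2 fold change against that line 1.12, adjusted p = 1.28e-06). Hoxb9 lay at 52.7, 58.2 and 61.2 CPM, against 1.70 to 34.0 CPM in MCA-969 and at most 4.49 CPM elsewhere, with a log2 fold change of 5.80 ± 0.30. The value of 34.0 CPM belonged to 1 MCA-969 tumor of the second run, and Hoxb9 was not called against both lines within that run (log2 fold change 3.29, adjusted p = 0.0015).

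Hoxc11 lay at 2.84, 3.26 and 4.11 CPM, where none of the other 24 tumors passed 0.324 CPM (log2 fold change 6.90 ± 0.30, adjusted p = 1.98e-17). Its neighbour Hoxc10 lay between 59.7 and 69.3 CPM in MCA-970, and MCA-948, at 64.4 to 120 CPM, overlapped it. Within the HoxC cluster MCA-970 thus shared Hoxc10 with MCA-948 and stood alone in Hoxc11. The 3′ genes went the other way in part, with Hoxc4 at 1.26 to 2.65 CPM in MCA-970 and 14.3 to 17.2 CPM in MCA-943, a log2 fold change of -1.55 against the mean of the lines (adjusted p = 2.36e-08). MCA-969, at 1.61 to 4.98 CPM of Hoxc4, overlapped MCA-970, so the low level was shared with that line.

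**Figure D3:**
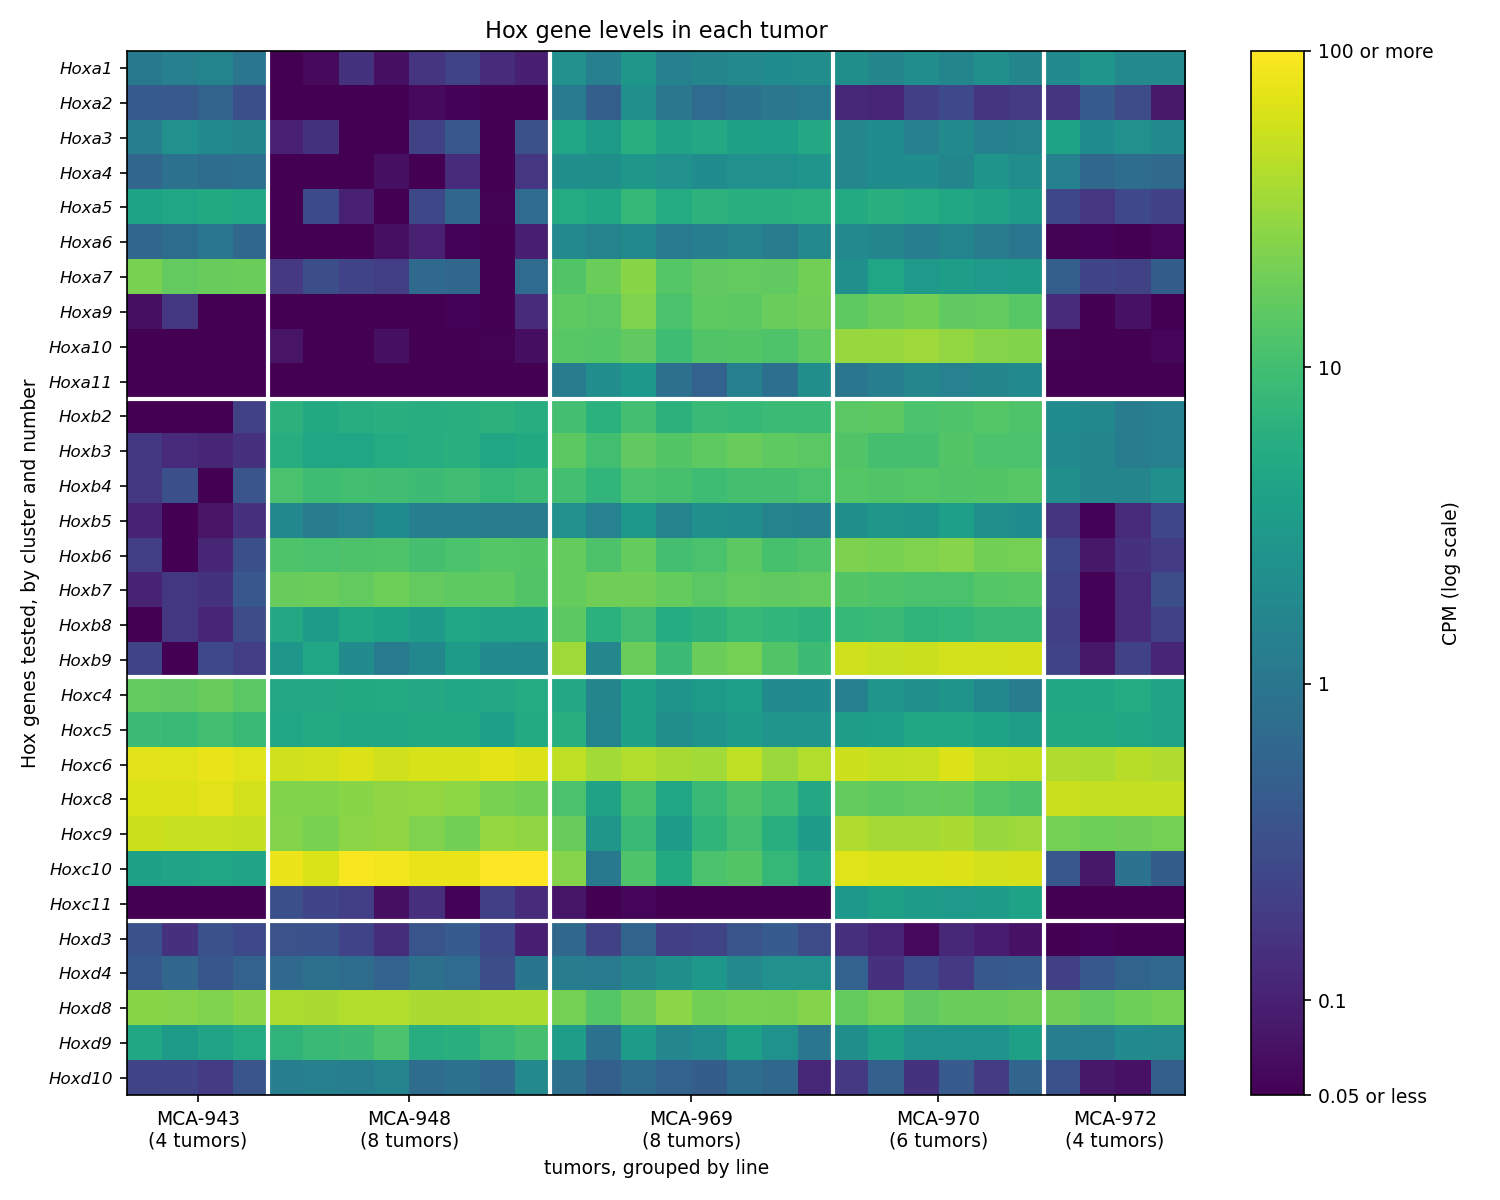
Level of the 30 Hox genes tested (rows, by cluster and number) in each of the 30 tumors (columns, grouped by line), in CPM on a logarithmic colour scale. The 6 MCA-970 tumors share Hoxa9 to Hoxa11 with MCA-969 and Hoxc10 with MCA-948, and they hold the highest Hoxb9, at 52.7 to 61.2 CPM, and Hoxc11, at 2.84 to 4.11 CPM.

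Hoxb9 lay in a group of neighbouring genes that were all higher than each line. On chromosome 11 (GRCm38, chr11:96251105-96276595), the noncoding gene Gm53, the microRNA gene Mir196a-1 and Hoxb9 follow each other on the plus strand, with log2 fold changes of 6.32, 5.0 and 5.80. Gm53 lay at 9.10, 10.7 and 12.2 CPM in MCA-970 and at 0 to 5.67 CPM elsewhere. Mir196a-1 lay at 0.373, 0.519 and 0.774 CPM against 0 to 0.361 CPM, which are reads counted over the gene and not a measure of the mature microRNA. Within the second run neither gene was called against both lines. The mature product is shown because miR-196a is known to act on Hox messenger RNAs. It is taken from RefSeq (GRCm38.p6, chr11:96265187-96265208, plus strand), with the seed, bases 2 to 8, in capitals.
mmu-miR-196a-5p: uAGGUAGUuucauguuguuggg
Hoxb8, a known target of this microRNA, lay between 6.97 and 8.35 CPM in MCA-970 and between 5.60 and 14.8 CPM in MCA-969, and its log2 fold change against MCA-969 was -0.05 (adjusted p = 0.86). Its part in these levels was not tested.

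Another such group of neighbours lay around Hand2 on chromosome 8 (chr8:57320983-57354580). The predicted gene Gm34030 lay at 0.290, 0.881 and 1.80 CPM, above the 0 to 0.147 CPM of all other tumors. 5033428I22Rik, on the opposite strand to it, lay at 3.02, 3.34 and 3.80 CPM against 0 to 1.69 CPM. Both held within the second run, with log2 fold changes of 3.65 and 3.32. The strand used in counting is not given in the sources used here, so reads of genes that overlap on opposite strands, such as this pair or Hand2 and its antisense gene Hand2os1, may not be separated.

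Genes of meiosis and of the piRNA pathway were also among those that stood highest. Stag3, a cohesin subunit of meiotic chromosomes, lay at 12.2, 14.7 and 16.8 CPM against 0.0378 to 3.20 CPM (log2 fold change 4.73 ± 0.23, 3.44 within the second run). Pnldc1, the exonuclease that trims piRNA ends, lay at 5.07, 5.72 and 6.18 CPM against 0.0611 to 0.881 CPM (log2 fold change 4.19 ± 0.15). Tdrd1, a Tudor protein that binds the Piwi proteins, lay at 7.40, 9.53 and 10.4 CPM, against 1.04 to 1.59 CPM in MCA-943 and at most 0.101 CPM in the other 3 lines (log2 fold change 7.06 ± 0.28). For each of the 3 genes no other tumor reached the lowest MCA-970 tumor. The list of 36 germline genes holds Tdrd1 but not Stag3 or Pnldc1, and 9 of its genes had enough counts to be tested. Of these 9, however, 3 were higher than the mean of the lines and only Tdrd1 was higher than each, with a median log2 fold change of 0.56. Ddx4, a helicase of germ cells, stayed between 0.0305 and 0.145 CPM.

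The other protein-coding genes with the largest separation were of mixed kinds. Fstl4, a secreted follistatin-like protein, lay at 1.79, 1.92 and 2.83 CPM, and the highest of the other tumors was at 0.0557 CPM. With no count in MCA-943, Fstl4 was at least 95.4-fold higher in MCA-970 than there. Crispld1, a secreted cysteine-rich protein, lay at 7.38, 11.8 and 17.2 CPM against 0.214 to 1.39 CPM (log2 fold change 4.47 ± 0.21). Gucy1a2, a subunit of the nitric oxide receptor guanylate cyclase, lay at 4.38, 4.73 and 5.44 CPM against 0 to 0.831 CPM (log2 fold change 5.81 ± 0.36). Frmpd2, a scaffold protein with PDZ domains, ranged more widely, from 1.65 to 8.21 CPM with a median of 4.49, above the highest other tumor at 1.26 CPM. The predicted X-linked gene Gm7173 lay at 0.678, 1.33 and 1.80 CPM, with at most 0.237 CPM elsewhere and no count in MCA-943 or MCA-972.

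Among genes higher than each line, the 5 largest differences in level were those of Col4a1, Col4a2, Anxa5, Neto2 and Lars2. Col4a1 and Col4a2, the 2 main chains of basement membrane collagen, lay at 922, 1321 and 1638 CPM and at 917, 1150 and 1491 CPM in MCA-970. In the other 24 tumors they ranged from 60.8 to 859 CPM and from 49.9 to 746 CPM, so neither overlapped. Their log2 fold changes were 2.24 ± 0.32 (adjusted p = 9.46e-07) and 2.45 ± 0.30 (adjusted p = 6.17e-08). MCA-969 was nearest, at 1.15 and 1.33 below on the log2 scale, and within the second run the differences were 1.38 and 1.64, not called against both lines. Of 38 collagen genes tested, 17 were higher and 1 lower than the mean of the lines, and these were the only 2 higher than each line. With run as a covariate Col4a1 kept its call against 2 of the 4 lines and Col4a2 against 3. The list had a median log2 fold change of 0.86 that was near 0 against MCA-943 (0.01) and MCA-972 (-0.09).

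Col4a1 and Col4a2 are read in opposite directions from 1 shared start region, where their annotated 5′ ends overlap by 22 bases, and with Gm15419, on the strand opposite Col4a2, they formed another group of neighbours that were all higher (chr8:11198423-11449287). Their start regions are shown because the pair moved together. Each runs from 250 bases before to 50 after the start in RefSeq (GRCm38.p6), at chr8:11312777-11313076 on the minus strand for Col4a1 and chr8:11312555-11312854 on the plus strand for Col4a2. Capitals mark the CCAAT box (CCAAT) and the GC box (GGGCGG), searched on both strands.
Col4a1: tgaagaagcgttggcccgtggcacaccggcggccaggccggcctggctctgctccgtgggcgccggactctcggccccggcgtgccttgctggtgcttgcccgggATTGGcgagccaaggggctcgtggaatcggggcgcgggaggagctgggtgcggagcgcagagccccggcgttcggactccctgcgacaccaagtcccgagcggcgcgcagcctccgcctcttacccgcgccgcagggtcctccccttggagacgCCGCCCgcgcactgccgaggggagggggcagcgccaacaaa
Col4a2: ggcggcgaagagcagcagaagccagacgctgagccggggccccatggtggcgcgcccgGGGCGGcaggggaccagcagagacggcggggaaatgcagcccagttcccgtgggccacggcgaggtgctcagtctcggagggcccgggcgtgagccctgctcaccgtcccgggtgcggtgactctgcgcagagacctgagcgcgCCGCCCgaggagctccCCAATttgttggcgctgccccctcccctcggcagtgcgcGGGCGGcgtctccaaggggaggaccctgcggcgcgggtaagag
The Col4a1 window holds 1 CCAAT box and 1 GC box and the Col4a2 window 1 and 3, on a shared stretch in part. Over 32851 RefSeq start regions of the same length, 37.4% hold a CCAAT box and 35.7% a GC box. The windows hold 37 and 33 CpG pairs, where the median over all start regions is 7. These are matches of letters only.

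Neto2, an accessory subunit of kainate receptors, lay at 495, 641 and 746 CPM against 10.4 to 270 CPM (log2 fold change 3.27 ± 0.21, 3.98 within the second run). Anxa5, which binds phosphatidylserine in membranes, lay at 1317, 1674 and 1947 CPM against 514 to 952 CPM (log2 fold change 1.22 ± 0.07, 1.28 within the second run). In both genes the highest of the other 24 tumors stayed below the lowest MCA-970 tumor. Lars2, the mitochondrial leucyl-tRNA synthetase, was raised in part through 1 MCA-970 tumor, a-2G, which held 1738 CPM against 584 to 693 CPM in the other 5. The other 24 tumors ranged from 213 to 897 CPM, and the highest of them, of MCA-948, lay above 5 of the 6 MCA-970 tumors. Without a-2G its log2 fold change fell from 1.23 to 0.89, under the threshold. That tumor also held 1.79% of its counts in Gm42418, Lars2 and similar loci that share sequence with ribosomal RNA, against 0.524 to 0.806% in the other 5.

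Serpine2, an inhibitor of thrombin and plasminogen activators also known as protease nexin-1, lay at 270, 301 and 345 CPM against 5.42 to 88.2 CPM elsewhere (log2 fold change 3.74 ± 0.28, adjusted p = 5.84e-12, 3.99 within the second run). Mmp10, the metalloprotease stromelysin-2, lay at 158, 299 and 533 CPM, and 2 of the 24 other tumors reached the lowest of these (log2 fold change 2.45 ± 0.30). Of 30 matrix proteases and inhibitors tested, 9 were higher and 1 lower than the mean, with a median of 0.59, and Serpine2 and Mmp10 were the 2 higher than each line. The integrin chains Itga8 and Itga1, which pair with the beta1 chain to bind matrix, were higher than each line too. Itga8 lay at 30, 40.0 and 52.6 CPM against 0.152 to 16.6 CPM (log2 fold change 4.30 ± 0.16), and Itga1 at 61.0, 72.7 and 86.7 CPM against 6.13 to 34.7 CPM (log2 fold change 1.88 ± 0.15). Neither overlapped. Over 30 integrin and laminin genes 6 were higher and 4 lower, with a median of 0.37.

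Pcdhga3, a gamma-protocadherin, lay at 15.5, 18 and 19.2 CPM against 0.125 to 6.05 CPM (log2 fold change 3.51 ± 0.20), though exons shared across that cluster make the level of a single member uncertain. Of 41 clustered protocadherins 15 were higher and 3 lower than the mean. Rhoc, a small GTPase of cell movement, at 458, 482 and 549 CPM against 114 to 258 CPM, and Ctsa, the lysosomal protease cathepsin A, at 419, 524 and 605 CPM against 119 to 225 CPM, were picked after their values were seen. Their log2 fold changes were 1.49 ± 0.07 and 1.64 ± 0.07. In both genes the MCA-970 tumors lay above all others.

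The imprinted Dlk1-Dio3 region on chromosome 12 held the largest group of neighbours, among those called higher than each line, with 5 genes from Rian to Mirg at log2 fold changes of 4.43 to 5.01 (chr12:109603940-109749460). Rian, a long noncoding RNA read from the maternal allele, lay at 412, 494 and 631 CPM. MCA-969 was next, at 138 to 211 CPM, MCA-943 lay at 77.2 to 101 CPM, and MCA-948 and MCA-972 were at or under 7.07 CPM. Mirg, a host of microRNAs in the same region, lay at 12.9, 16.5 and 21 CPM against at most 5.73 CPM. Meg3, the first maternal transcript of the region, lay at 257, 344 and 398 CPM, and 1 MCA-969 tumor, at 297 CPM, overlapped it, so that it was not called against MCA-969 (log2 fold change 0.97, adjusted p = 0.010). Rian and Mirg held against both lines of the second run.

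Other imprinted genes moved apart from this region. Of 29 tested, 7 were higher and 5 lower than the mean of the lines, with a median of 0.25. Kcnq1ot1, the antisense RNA of the Kcnq1 region, was lower, at 2.08, 2.35 and 3.66 CPM against 4.55 to 27.7 CPM (log2 fold change -2.27 ± 0.33), and within the second run, at 4.55 to 7.01 CPM in the other 4 tumors, the difference shrank to -1.04. Snrpn, a splicing factor gene read from the paternal allele, was called higher than each line at a median of 0.332 CPM, but 19 of 24 other tumors reached its lowest MCA-970 value of 0.0305 CPM.

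Among the protein-coding genes lower than each line was Hdx, an X-linked homeobox gene. Hdx lay at 0.0916, 0.333 and 0.598 CPM in MCA-970 and at 3.0 to 15.8 CPM in the other 24 tumors (log2 fold change -4.59 ± 0.25, adjusted p = 4.36e-15, -4.98 within the second run). Mpp7, a scaffold of cell junctions, lay at 0.842, 1.09 and 1.37 CPM against 6.58 to 13.9 CPM (log2 fold change -3.06 ± 0.13). Atg9b, a membrane protein of autophagy, lay at 0.947, 1.43 and 1.68 CPM against 5.60 to 37.3 CPM (log2 fold change -3.38 ± 0.20). For all 3 the groups did not overlap, and each held against both lines of the second run.

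Other genes lower than each line had varied roles. Aqp5, a water channel of secretory epithelia, lay at 0.0611, 0.235 and 0.435 CPM against 0.517 to 12.8 CPM (log2 fold change -3.80 ± 0.36). Omd, the small proteoglycan osteomodulin, lay at 0.626, 1.15 and 2.27 CPM against 3.56 to 17.2 CPM (log2 fold change -2.50 ± 0.32). Wnt10b, a Wnt ligand, lay at 0.484, 0.929 and 1.84 CPM against 2.20 to 12.6 CPM (log2 fold change -2.52 ± 0.28). All 3 genes separated the MCA-970 tumors from the rest. Serpind1, the thrombin inhibitor heparin cofactor II, also did so, at 0.405 to 1.06 CPM against 1.37 to 6.04 CPM, as did 2900026A02Rik, a gene of unassigned function, at 4.37 to 14 CPM against 15.8 to 83.0 CPM. Cxcl5, a chemokine that attracts neutrophils, lay at 0.368, 0.996 and 1.72 CPM, and 4 other tumors fell within that range (log2 fold change -2.32 ± 0.57, adjusted p = 0.00095). In MCA-943 the tumor a-1G held 16.4 CPM of Cxcl5 and the others 0.474 to 1.18 CPM, so the mean of that line was set by 1 tumor. Of 43 Wnt pathway genes 11 were higher and 2 lower than the mean, and Wnt10b was the 1 called against each line.

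Tpr, a protein of the nuclear pore basket, was lower at 128, 141 and 144 CPM against 276 to 490 CPM (log2 fold change -1.40 ± 0.09, adjusted p = 4.45e-14, -1.24 within the second run). The other 4 of the 5 genes with the largest fall in level differed less within the second run. The mitochondrial complex I gene mt-Nd6, the only protein gene on its strand, lay at 7.94, 13 and 17.1 CPM, while the 4 other tumors of the second run lay at 15 to 28.3 CPM and the highest tumor of the series at 214 CPM. Its log2 fold change was -3.01 ± 0.45 over all tumors and -0.73 within the second run. Malat1, a nuclear noncoding RNA, went from -1.49 ± 0.25 to -0.58, Ptges3, a co-chaperone of Hsp90 that can make prostaglandin E2, from -1.13 ± 0.13 to -0.72, and Ccdc6, a coiled-coil protein, from -1.47 ± 0.15 to -0.66.

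Mitochondrial transcripts as a whole were low in MCA-970, also within its run. The mitochondrial protein genes took 0.369 to 0.489% of counts in MCA-970, 1.03 to 1.25% in the 4 other tumors of the second run, and 0.415 to 1.58% over all 24 others. MCA-943, at 0.415 to 0.672%, overlapped MCA-970, so a low share was not particular to MCA-970. mt-Co1, a subunit of complex IV, lay at 1849, 2260 and 2361 CPM against 2472 to 6831 CPM, with a log2 fold change of -1.11 ± 0.15 and -1.43 within the second run. mt-Nd5, of complex I, lay at 314, 357 and 396 CPM against 443 to 1565 CPM (-1.25 ± 0.12, and -1.27 within the second run). Small Cajal body RNA genes behaved otherwise, with 0.000246 to 0.000336% of counts in MCA-970, 0.000235 to 0.000329% in the other tumors of the second run, and up to 0.00338% over all others. Within the second run the ranges of MCA-970 and the other 2 lines overlapped, while tumors of those lines in the other runs reached 0.00225% (MCA-948) and 0.00338% (MCA-969).

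Whole chromosomes differed in their median. Of 943 genes of chromosome 3, 43 were higher than each line (4.56%) and 8 lower (0.848%), against 1.59% and 1.03% over all genes tested. The median log2 fold change of the 943 genes was 0.57, with 0.51 to 0.57 in single MCA-970 tumors. It was 0.82 against MCA-943, 0.37 against MCA-948, 0.54 against MCA-969 and 0.36 against MCA-972, and 0.48 within the second run. All 16 windows of 10 Mb along the chromosome had a median above 0, from 0.22 to 0.93. Anxa5, Rhoc and the vessel gene Emcn lie on it. Chromosome 10 had a median of -0.38, with -0.40 to -0.34 in single tumors and all 13 windows below 0, and it carries Ptges3 and Ccdc6.

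Chromosome 6 had a median of 0.35, with 14 of 15 windows above 0, and chromosome 14 of 0.25, with 8 of 9. Both differed most from MCA-948, at 0.55 and 0.44. Against MCA-943, MCA-969 and MCA-972 the medians were 0.27, 0.23 and 0.29 for chromosome 6. For chromosome 14 they were 0.14, 0.10 and 0.15. Chromosome 6 carries Hoxa10 and the Gimap genes. Chromosome 7 was lower, at -0.31 with all 15 windows below 0, but against MCA-972 its median was 0.10, so this fall set MCA-970 apart from 3 of the 4 lines. Leaving out each other line in turn moved the median of chromosome 3 to as low as 0.43 (without MCA-943) and that of chromosome 7 to -0.47 (without MCA-972), with no change of sign. The 15 remaining chromosomes, X among them, had medians of -0.07 to 0.06. Copy number was not measured.

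**Figure D4:**
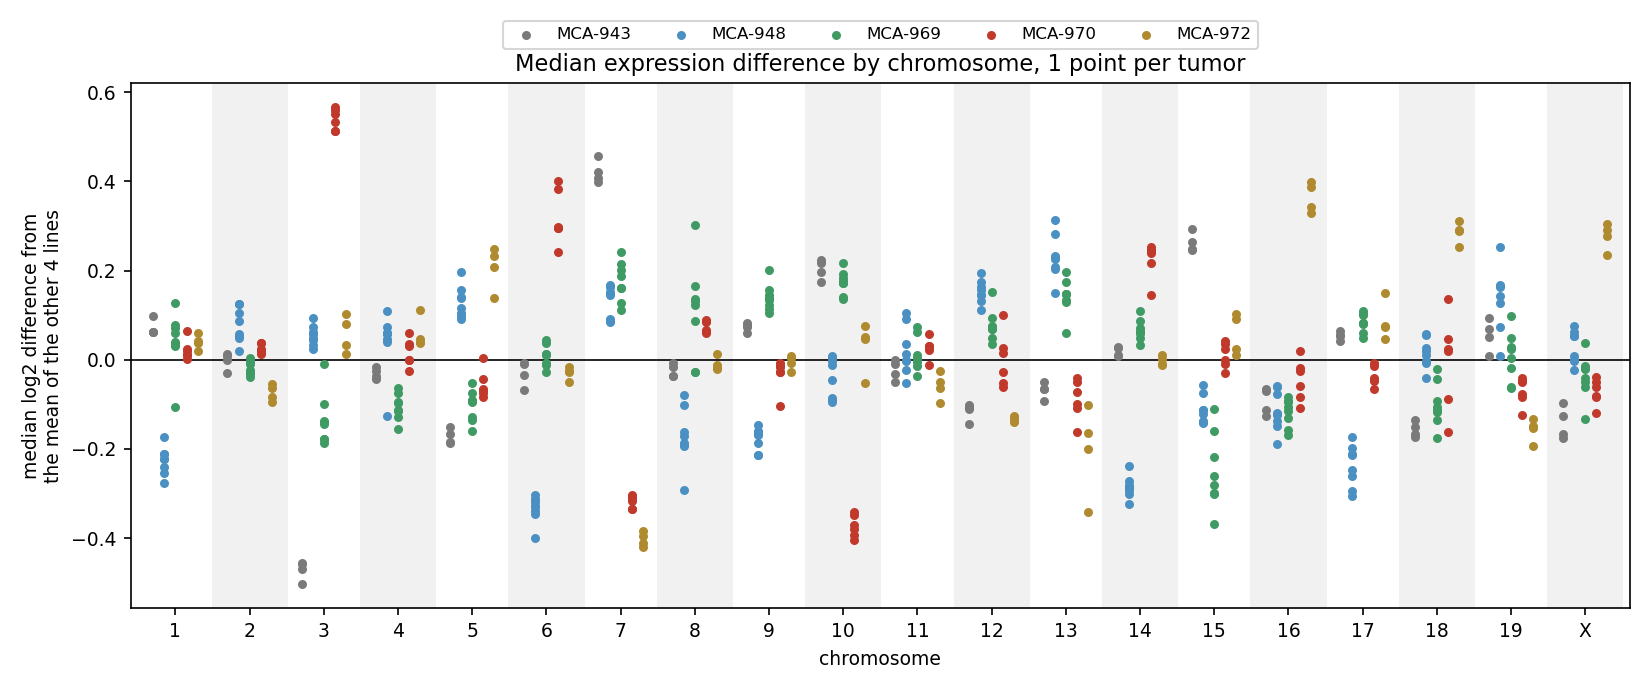
Median over the tested genes of each chromosome of the log2 difference between a tumor and the mean of the other 4 lines, with 1 point per tumor and the line by colour. The 6 MCA-970 tumors lie together at 0.51 to 0.57 on chromosome 3 and at -0.40 to -0.34 on chromosome 10, apart from every other line.

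The 20 mitochondrial genes had a median of -1.28, and of -0.88 against MCA-943. Genes of the Y chromosome were expressed in MCA-970, MCA-948 and MCA-969. Ddx3y, an RNA helicase, lay between 45.4 and 54.5 CPM in MCA-970 and at 46.0 to 97.2 CPM in the other 2 together. MCA-943 and MCA-972 lay at or under 2.16 CPM. Over the 8 Y genes tested the median log2 fold change was -1.01 against MCA-948, -0.45 against MCA-969 and -0.80 within the second run. Xist, the RNA that silences an X chromosome, was at or under 0.147 CPM in MCA-970. In these genes MCA-970 sided with 2 of the lines, with the Y genes at a lower median level than in either.

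Cdh5, the gene of vascular endothelial cadherin, was higher in MCA-970 at a level that did not follow the other vessel genes. It lay at 211 CPM in the tumor W-1D, 248 in W-2D, 217 in W-R, 252 in a-1D, 236 in a-2D and 251 in a-2G, against 6.86 to 126 CPM in the other 24 tumors. Its log2 fold change was 2.64 ± 0.35 (adjusted p = 2.58e-07) and 2.00 within the second run, where it was not called against both lines. The groups did not overlap, and the highest MCA-970 tumor was 1.19 times the lowest. Pecam1, the endothelial adhesion protein CD31, lay instead at 40.3 CPM in W-1D, 109 in W-2D, 21 in W-R, 113 in a-1D, 108 in a-2D and 119 in a-2G, a ratio of 5.67. Kdr, the VEGF receptor, ranged from 8.43 to 47.1 CPM, a ratio of 5.58, and Emcn, the endothelial sialomucin, from 3.85 to 28.6 CPM, a ratio of 7.43. Both were lowest in W-R and second lowest in W-1D, as Pecam1 was.

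Of 13 endothelial genes tested, 11 were higher than the mean of the lines, 3 of them (Cdh5, Emcn and Tie1) than each line, with a median log2 fold change of 1.52 and of 0.70 within the second run. Without W-1D and W-R, a setting chosen after seeing the data, 8 were higher than each line and the median was 1.92, while with run as a covariate 1 of the 13 was higher than the mean, at a median of 1.14. The summed level of the list was 309 to 685 CPM in MCA-970 and 34.5 to 633 CPM elsewhere, and the highest other value came from an MCA-948 tumor of the second run. Emcn (log2 fold change 2.04 ± 0.43) and Tie1 (1.44 ± 0.35), a receptor of vessels, each overlapped with 13 of the 24 other tumors. The neighbouring genes Gimap4, Gimap6, Gimap1 and Gimap5 of chromosome 6, GTPases known from lymphocytes and endothelium, were also higher than each line, at log2 fold changes of 1.36 to 1.87. Their reads can be shared among family members, and within the second run the 4 differences were 0.83 to 1.38, none with an adjusted p under 0.05.

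**Figure D5:**
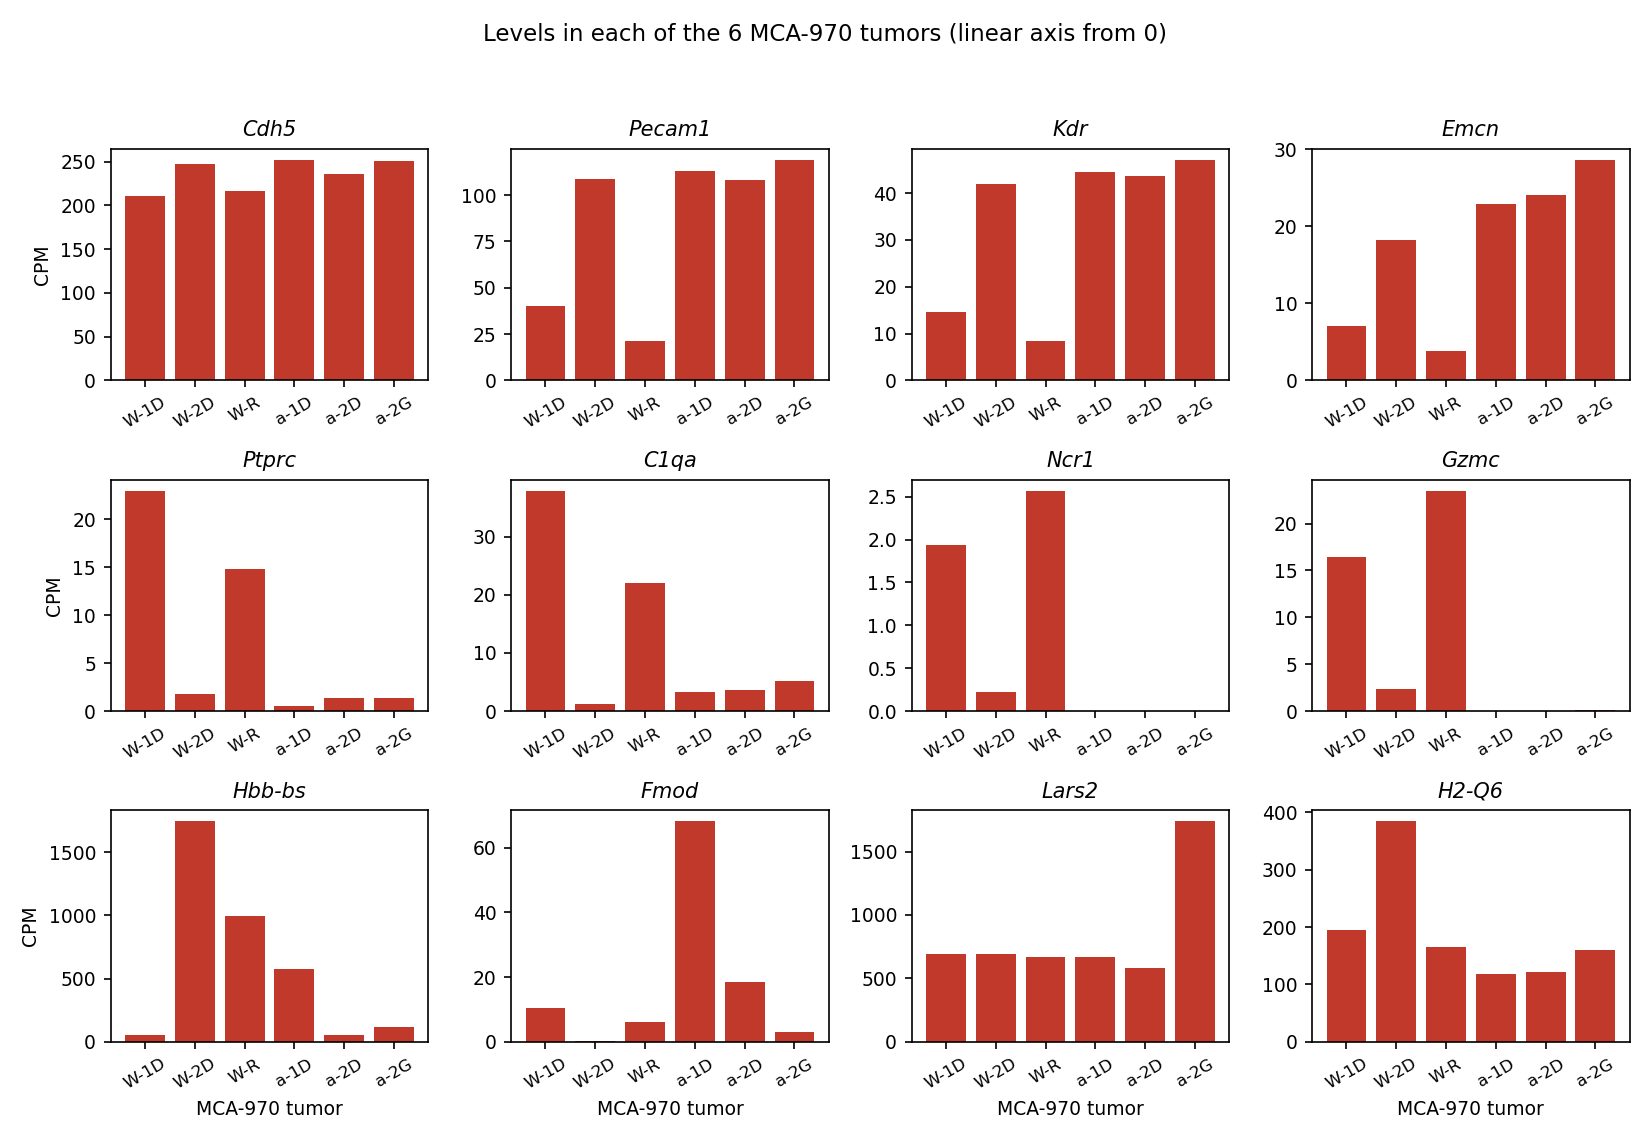
Levels of 12 genes in CPM (linear axes from 0) in each of the 6 MCA-970 tumors. Cdh5 is near even at 211 to 252 CPM, Pecam1, Kdr and Emcn are lowest in W-R and W-1D, Ptprc, C1qa, Ncr1 and Gzmc are highest in those 2, Hbb-bs is highest in W-2D, Fmod in a-1D, Lars2 in a-2G and H2-Q6 in W-2D.

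The same 2 tumors held the most RNA of leukocyte genes. Ptprc, the gene of CD45 itself, was at 23 CPM in W-1D and 14.8 in W-R, against 1.77, 0.508, 1.34 and 1.40 CPM in W-2D, a-1D, a-2D and a-2G. C1qa, a complement gene of macrophages, was at 37.9 and 22.1 CPM in these 2 and at 1.21 to 5.20 CPM in the other 4. Ncr1, the gene of the NK cell receptor NKp46, was at 1.94 and 2.57 CPM in W-1D and W-R, at 0.221 in W-2D and at 0 in the rest. RNA of these leukocyte genes was thus uneven among the 6 tumors. Ncr1 also followed the title letter in 2 other lines. In MCA-948 and MCA-969 it lay at 0.0276 to 1.07 CPM in the W tumors and at 0 in the a tumors. In MCA-943 it lay at 3.29 CPM in W-2G and at 0.0378 to 0.318 CPM in the a tumors. MCA-972 had no count of Ncr1 and holds no tumor titled W. The lines thus hold W and a tumors in unequal shares, and what this adds to differences between lines was not tested.

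Of 12 NK cell genes tested, 10 were higher and 1 lower than the mean of the lines, with a median log2 fold change of 2.14, but none was higher than each line and the median was -0.24 against MCA-943. The summed level of the NK list was 42.5 CPM in W-1D, 44.7 in W-R, 7.47 in W-2D and 1.17 to 2.36 in the other 3, and 0.947 to 61.2 CPM in the other lines. Without W-1D and W-R, 11 of these genes were tested, none was higher than the mean, 1 was lower, and the median was -0.67. The NK cell result thus rested on 2 tumors. The macrophage list had a median of 1.08 with 4 of 13 genes higher, and -0.67 with none higher once those 2 tumors were left out. The granzyme gene Gzmc, a cytotoxic protease, followed the same split, at 16.4 and 23.5 CPM in W-1D and W-R, 2.32 in W-2D and at most 0.121 in the rest.

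Genes of red cells and 1 matrix gene also varied widely among the 6 tumors. Hbb-bs, a beta globin gene, was at 50.6 CPM in W-1D, 1743 in W-2D, 997 in W-R, 574 in a-1D, 52.8 in a-2D and 120 in a-2G. Hbb-bt, Hba-a1 and Alas2, the first enzyme of heme synthesis in red cells, followed the same order at the top, with W-2D, W-R and a-1D highest. Fmod, the collagen-binding proteoglycan fibromodulin, was at 10.3 CPM in W-1D, 0.294 in W-2D, 6.02 in W-R, 68.1 in a-1D, 18.5 in a-2D and 3.02 in a-2G. Fmod did not follow the red cell genes or the leukocyte genes.

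Genes of MHC class I, which present peptides and engage inhibitory receptors of NK cells, placed MCA-970 between MCA-943 and the rest. Of 18 tested, 11 were higher than the mean of the lines and none lower, with a median log2 fold change of 1.24, but the median was -1.54 against MCA-943 and 4.10, 1.24 and 1.80 against MCA-948, MCA-969 and MCA-972. H2-K1, a classical class I heavy chain, lay at 738, 1023 and 1450 CPM in MCA-970, 1628 to 2522 CPM in MCA-943, and at most 367 CPM in the other 3 lines. B2m, the light chain, lay at 1593, 2047 and 2518 CPM against 2955 to 3847 CPM in MCA-943 and at most 1157 CPM elsewhere. In both genes MCA-970 was separate from every line.

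The Qa genes H2-Q6 and H2-Q7 were at 118 to 384 CPM and 63.9 to 183 CPM, against at most 26.4 and 24.7 CPM in MCA-948, MCA-969 and MCA-972. These genes are near copies of each other, so their single levels are uncertain. The interferon-stimulated genes had 2 of 26 higher and 1 lower than the mean, at a median of 0.54, and 9 higher with run as a covariate. Against single lines their median was -2.09 for MCA-943, 2.71 for MCA-948, 1.03 for MCA-969 and 0.15 for MCA-972, and it was 2.42 within the second run. The tumor W-2D held a summed level of 1302 CPM against 663 to 760 CPM in the other 5. Of 17 ligands of NK cell receptors 4 were higher and 1 lower than the mean, and Raet1d and H60b, ligands of the activating receptor NKG2D, were higher than each line. Raet1d lay at 1.44, 4.85 and 7.39 CPM, reached by 5 of the other 24 tumors (log2 fold change 3.39 ± 0.30), and H60b at 0.122, 0.367 and 0.658 CPM, reached by 6 (2.58 ± 0.41). With run as a covariate neither was called against each line, Raet1d keeping 3 of the 4 lines and H60b 1. Both belong to gene families with close copies.

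Among secreted signals, 8 of 31 cytokines were higher and 1 lower than the mean of the lines, with a median log2 fold change of 0.35. Il6, an inflammatory cytokine, lay at 8.98, 13.9 and 29.9 CPM against 0.676 to 13.3 CPM (log2 fold change 2.04 ± 0.32), and it was the 1 cytokine higher than each line, a call lost with run as a covariate. Slco2a1, which carries prostaglandins into cells, lay at 142, 159 and 304 CPM against 5.54 to 105 CPM (log2 fold change 2.58 ± 0.22). Hpgd, the enzyme that inactivates them, lay at 2.02, 5.34 and 6.94 CPM, reached by 3 other tumors (log2 fold change 3.04 ± 0.30). Of 15 genes of the prostaglandin list 7 were higher and 2 lower, with a median of 1.06, and the 2 higher than each line act in uptake and breakdown, while the 1 lower was Ptges3. With run as a covariate none of the 3 was called against each line, Slco2a1 and Hpgd keeping 3 of the 4 lines.

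In the TGF-beta and BMP pathway 15 of 59 genes were higher and 4 lower. Nog, the BMP antagonist noggin, lay at 0.897, 1.40 and 2.21 CPM, reached by 1 other tumor (log2 fold change 3.14 ± 0.26). Chrdl1, another BMP antagonist, was lower, at 0.478, 1.14 and 1.79 CPM against 1.10 to 66.2 CPM (log2 fold change -3.13 ± 0.38). Gdf9, an oocyte growth factor of the same family, lay at 1.16, 1.74 and 2.48 CPM (log2 fold change 1.45 ± 0.22), and 0.88 within the second run. The 2 antagonists thus moved in opposite directions.

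The growth factor gene Fgf9 lay at 0.218 to 0.628 CPM with a median of 0.292 (log2 fold change 2.36 ± 0.35), and Mfng, a glycosyltransferase that modifies Notch, at 1.01, 3.32 and 4.55 CPM with 12 other tumors in its range (1.46 ± 0.37). Within the second run the difference in Mfng was 0.87 (adjusted p = 0.24). These were the single members of their lists called against each line.

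Genes of the cell cycle were not called as a group. Of 26 tested, none was higher and 1 lower than the mean of the lines, with a median log2 fold change of -0.35 and of -0.49 within the second run. That gene was Mki67, which encodes the proliferation marker Ki-67, at 97.0, 121 and 143 CPM against 148 to 471 CPM in the other 24 tumors (log2 fold change -1.31 ± 0.10, adjusted p = 3.39e-12). All 6 tumors lay below all others, while the summed level of the list, at 2144 to 2946 CPM, overlapped the 2301 to 4610 CPM of the other lines. Cdk6, a kinase of the G1 phase, lay at 49.7, 53.1 and 58.1 CPM against 59.8 to 150 CPM (log2 fold change -1.10 ± 0.14), but the difference within the second run was -0.47. Eda2r, a receptor gene induced by p53, lay at 4.50, 5.34 and 8.28 CPM against 6.65 to 27.6 CPM (log2 fold change -1.63 ± 0.19).

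Of the 46 lists examined, 26 held no gene called against each line. Among those were fibroblast identity, skeletal muscle, cartilage, Schwann cells, MHC class I, interferon-stimulated genes, glycolysis, cholesterol synthesis and the Ras and ERK genes. In the Ras and ERK list 2 of 40 genes were higher and 3 lower than the mean, at a median of 0.22. In the glycolysis list 2 of 29 were higher and 2 lower, at a median of 0.22, and in cholesterol synthesis none of 21 was higher and 1 lower, at -0.07. For comparison, the other lines taken in the same way had 718 higher and 581 lower genes against each line in MCA-943, 127 and 958 in MCA-948, 376 and 87 in MCA-969 and 417 and 185 in MCA-972.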

How the data were processed

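Bulk RNA sequencing of 30 tumors was deposited as 1 table of read counts per gene. The submitters' processing notes name STAR 2.5.3a, GRCm38, Picard and featureCounts 1.5.2 for what the authors did, while the study's methods give another version of featureCounts and do not name Picard. The deposited counts are raw whole numbers after removal of duplicates by molecular identifier, per the file headers, and neither the annotation nor the strand setting is given in the sources used here. Of 48440 gene identifiers, 48058 were named through GENCODE M21.

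Counts were scaled by TMM and tested with edgeR 4.0.16 (R 4.3.3; quasi-likelihood, genes kept by filterByExpr on line, robust), with a contrast of MCA-970 against the mean of the 4 line coefficients and 4 contrasts against single lines in the same fit. DESeq2 1.42.0, limma 3.58.1 (voom), DESeq2 size factors, other filters and thresholds, run as a covariate, the second run alone, title codes as a replicate block, equal weight per tumor, and fits without each line or tumor were the alternatives. No 2 tumors of a line agreed within counting noise. The scripts were tested on simulated data. The members and lists were chosen with earlier results of these data known.

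Named genes were the 10 protein-coding genes in each direction with the largest difference in their weakest comparison (mean of at least 1 CPM), the 5 in each direction with the largest difference in level, up to 4 members per list called against each line (or, where a list had none, up to 2 with the largest difference from the mean), the 5 most variable genes of at least 5 CPM, and runs of at least 3 neighbours. Other genes named, such as Tbx1, Dmrt2, Meox1, Rhoc, Ctsa, H2-K1, B2m, Meg3, Hoxb8, Hoxa9, Hoxc10, mt-Co1, mt-Nd5, Hbb-bs, Gm42418, Ptprc, C1qa, Pecam1 and Kdr, were chosen after their values were seen. Overlapping genes, among them Atg9b with Nos3 and mt-Nd6 with mt-Nd5, may not be separated.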

Additional observations from a re-analysis of the deposited data

Results flagged for a closer look

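Values of 1 tumor that stood apart from the other 5 MCA-970 tumors were looked for in 105 named genes, 20 gene lists and RNA classes and 7 chromosomes, by the gap to the nearest tumor as a share of the whole range. Chance alone marks about 1 in 20 such groups. Marked were 5 of the 105 genes, 4 of the 20 lists and classes, and 1 of the 7 chromosomes. The tumor a-2G stood apart in 5 of the marked groups. It held 1738 CPM of Lars2 and 15644 CPM of Gm42418, 1.79% of counts in ribosomal RNA-like loci, 97.6% of counts in protein-coding genes, the lowest of the 6, and 0.000336% in small Cajal body RNA genes. These 5 are not independent, because Lars2 and Gm42418 belong to the ribosomal RNA-like loci and the classes are shares of 1 total. W-2D stood apart with 384 CPM of H2-Q6 and a summed level of 1302 CPM of interferon-stimulated genes. a-1D stood apart with 68.1 CPM of Fmod and 0.628 CPM of Fgf9, and a-2D with a median log2 difference of 0.14 on chromosome 14. No cause was tested for any of these values.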

How the results depend on the processing

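The counts of genes higher and lower than the mean of the lines, and higher and lower than each line, were 1933, 971, 268 and 174. With a mean of at least 1 CPM they were 1168, 496, 148 and 69, with no threshold on the fold change 5375, 4905, 1143 and 1068, and with a log2 fold change of at least 2 they were 580, 216, 63 and 39. Without a filter on low counts, 2953 genes were higher than the mean. With run as a covariate 123 and 106 genes were called against each line, of which 92 and 65 were among the 268 and 174, and in the second run only, with 2 lines to compare, 880 and 600. With title code as a replicate block 157 genes were higher and 119 lower than each line, 145 and 107 of them shared. Deviations of tumors of 1 code correlated at r of -0.25 to 0.41 over 10 pairs with MCA-970, 2 of them above 0.1. Pairs of different codes gave r of -0.42 to 0.44 over 134 pairs. The pairs share tumors, so they are not independent, and an effect of the code or of its letter was not tested. Fewer lines gave more calls, with 458 higher without MCA-969, 589 higher and 344 lower without MCA-972, and 327 and 297 lower without MCA-943 and MCA-948. Leaving out single tumors gave 1863 to 1986, 944 to 1031, 243 to 286 and 159 to 185. Without W-1D and W-R of MCA-970 the 4 counts were 1846, 991, 292 and 185, and without the 2 second-run tumors of MCA-969 they were 1925, 963, 278 and 180, both chosen after seeing the data. No named gene that was called against each line changed direction under any alternative. The leukocyte lists held no such gene, and without W-1D and W-R the median of the NK cell list went from 2.14 to -0.67. With run as a covariate, calls against the mean were lost for mt-Nd6, Lars2, Malat1, Ptges3, Ccdc6, Emcn, Tie1, Il6, Gdf9, Mfng, Cdk6, Kcnq1ot1, Mir196a-1, Gimap6, Gimap1 and Gimap5. Calls against each line were lost for these and also for Fstl4, Frmpd2, Lhx2, Col4a1, Col4a2, Gm15419, Cdh5, Mmp10, Pcdhga3, Pcdhb13, Raet1d, H60b, Slco2a1, Hpgd, Fgf9, Snrpn, Rian, Gm23600, DQ267102, Gimap4, 5033428I22Rik and Rhoc among the higher genes, and for Tpr, Omd, Cxcl5, Eda2r and Slc12a2 among the lower. The cause was not tested.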
